A study of Mus musculus with 32 samples.

Results

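The drug-metabolising cytochrome P450 genes of mouse liver Cyp1a2, Cyp2a5, Cyp2a12, Cyp2b10, Cyp2e1, Cyp2f2, Cyp3a11, Cyp3a13 and Cyp3a25, and Por, the reductase that serves them, were followed through input and m6A immunoprecipitation (IP) libraries. They were chosen by symbol, and all 10 were found among the 55421 genes of the deposited count table, of which 24803 had any count. Liver RNA came from 16 mice, each of which gave an input library and an IP library. The animals formed 4 groups of 4: flox control mice after sham surgery (71 to 77 days old), Mettl14 KO mice after sham surgery (72 to 73 days), flox control mice after hepatectomy (72 to 73 days) and Mettl14 KO mice after hepatectomy (72 to 73 days). Hepatectomy is the surgical removal of part of the liver, and METTL14 works with METTL3 to write m6A, a methylated adenosine, on mRNA. The Cre driver, strain and sex are not stated in the labels used here, and the time after surgery is not given in words (the design text marks the groups HEPA3 and SHAM3). By its title, the study is about m6A on mRNA and the regeneration of the liver.

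Microsomal P450s oxidise drugs, toxins and steroids with electrons that POR passes to them from NADPH. They are made mostly by hepatocytes, and several are zoned along the liver lobule: Cyp1a2 and Cyp2e1 are textbook genes of hepatocytes around the central vein, and Cyp2f2 of those around the portal vein. Their transcription depends on nuclear receptors (CAR, PXR, PPAR alpha with their partner RXR alpha), on the aryl hydrocarbon receptor and on liver factors such as HNF4 alpha and C/EBP alpha.

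Library totals were 8177746 to 12533871 counts in input and 7133726 to 24297713 in IP. Input libraries had fewer genes with at least 10 counts (4176 to 9354) than IP libraries (6676 to 16846), and among IP libraries that of hepatectomised KO replicate 4 was lowest in both. Mettl14 itself had 0 counts in all 16 inputs. Levels are given as CPM, counts per 1000000 of the library total, and 0 counts allow a Mettl14 level of up to 0.239 to 0.367 CPM, by library. In IP it had counts in 5 of 8 flox animals (highest 8.14 CPM) and in 3 of 8 KO animals (highest 3.08 CPM), so the genotypes could not be checked by it. The 10 hepatocyte markers found (among them Alb, Apoa1 and Trf) had counts in all 32 libraries.

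In IP libraries Cyp2e1, Cyp3a13, Cyp2f2 and Cyp1a2 were lower and Cyp2a5 was higher in hepatectomised KO than in hepatectomised flox animals. Cyp3a11 had a log2 change of 0.19 that did not pass the test. A call here means a Benjamini-Hochberg adjusted p below 0.05 over all genes tested in edgeR's quasi-likelihood fit. Over all genes 1.5% were called in this comparison and 1.16% were called lower, against 5 and 4 of the 10 members. Of the 210 genes called, 48 were higher and 162 lower, and without TMM scaling factors 75 were higher and 95 lower (363 and 446 with DESeq2, 168 and 209 above a mean of 50 CPM). The median log2 change of all genes was 0.01, and 0.28 without TMM factors.

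The level of the mRNAs is best read from the inputs, which were made with a stranded mRNA kit. In sham flox livers Cyp2e1, which oxidises ethanol and acetaminophen, was the highest per exon length, at 1239 ± 182 RPKM (CPM per kilobase of exon, mean and SD, n = 4). Cyp3a11, the mouse relative of human CYP3A4, followed at 504 ± 167 RPKM, and its range overlapped that of Cyp2f2, which activates naphthalene, at 427 ± 108 RPKM. Cyp1a2, which oxidises caffeine, stood at 274 ± 79.9 RPKM, its range overlapping that of Cyp2f2, and Por at 138 ± 16.5 RPKM, below all 4 of those genes in every library. The other 5 members had lower means, from 71.1 RPKM for Cyp2a12 to 22.6 RPKM for Cyp2b10, with ranges that overlapped from each to the next. The 9 P450s together took 0.601% to 0.968% of the input counts of sham flox animals. The range was 0.613% to 0.876% for sham KO, 0.554% to 0.834% for hepatectomised flox and 0.643% to 0.804% for hepatectomised KO animals. These ranges overlapped in every pair of groups.

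No member was called in input in any of the 5 comparisons of edgeR (KO against flox in each surgery, surgery in each genotype, and the interaction). The background there was 0.0114% of genes for KO against flox in sham, 0.0342% after hepatectomy, 0% for surgery in flox, 0.0114% for surgery in KO and 0% for the interaction. In that order 1, 1, 0, 0 and 0 members had an unadjusted p under 0.05 (9.17%, 14%, 17%, 2.76% and 12.3% of all genes). DESeq2 called 0 members in each, and over all genes 653, 1052, 1353, 148 and 1240. Cyp3a11 was the member closest to a call. Its input held 3672, 2610, 2356 and 1622 CPM in sham flox replicates 1 to 4, and 4475, 2450, 3587 and 3500 CPM in sham KO. After hepatectomy it held 2876, 2247, 3261 and 2439 CPM in flox and 2898, 4684, 2311 and 3313 CPM in KO. The ranges overlapped in both surgeries, and the log2 difference of KO from flox was 0.70 (SE 0.19, adjusted p = 0.29, edgeR) in sham and 0.46 (SE 0.19, adjusted p = 0.28) after hepatectomy. The sham value became a call without the 2 sham flox animals aged 77 days (1.003, adjusted p = 0.0043), without the first of these alone (0.90, adjusted p = 0.0079) and with the replicate number as a block (0.73, adjusted p = 0.047). The median of all genes was also higher in KO inputs, by 0.29 in sham and 0.46 after hepatectomy, so that Cyp3a11 lay 0.41 above it in sham and level with it after hepatectomy (-0.01).

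Cyp2e1 was the member whose input level was lower in every sham KO animal than in every sham flox animal by library total. It held 3248, 2387, 2469 and 2593 CPM in sham flox and 2079, 1720, 2231 and 2020 CPM in sham KO inputs. The fitted log2 difference was -0.15 (SE 0.24, adjusted p = 1, edgeR), with TMM factors that also moved the median of all genes from 0.04 to 0.29.

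Input libraries of the less abundant members were erratic between animals of a group. Cyp2b10, the target gene of CAR, had 0, 0, 1.96 and 189 CPM in sham flox replicates 1 to 4, where a count of 0 allows up to 0.243 and 0.255 CPM in the first and second library. In sham KO it had 0, 98.5, 69.3 and 174 CPM, in hepatectomised flox 0, 0.0843, 146 and 87.6 CPM, and in hepatectomised KO 0.0816, 50.2, 91.9 and 0 CPM. Cyp2a5, which hydroxylates coumarin and nicotine, spanned 0.294 to 239 CPM within sham flox alone. The coefficient of variation, taken in each group and given as the median of the 4, was 124% for Cyp2b10, 85.2% for Cyp2a5, 58.8% for Cyp2a12 and 49.7% for Cyp3a25 in input, but 18.6% for Por and 19.9% for Cyp2e1. In IP libraries it was 55.9% for Cyp2b10, 48.4% for Cyp2a5 and 18.8% for Cyp2a12. For Cyp2b10, Cyp2a5 and Cyp2a12 the level in input therefore says little about a group of 4 animals. The same limit applies to Cyp3a25 in sham flox input (18.4 to 251 CPM) and Cyp3a13 in sham KO input (17.9 to 384 CPM). Cyp2b10 in IP held 3.9 to 28.2 CPM in sham flox, 13.7 to 25.2 in sham KO, 10.2 to 57 in hepatectomised flox and 9.25 to 73.4 in hepatectomised KO animals, and was called in no comparison reported here.

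**Figure D1:**
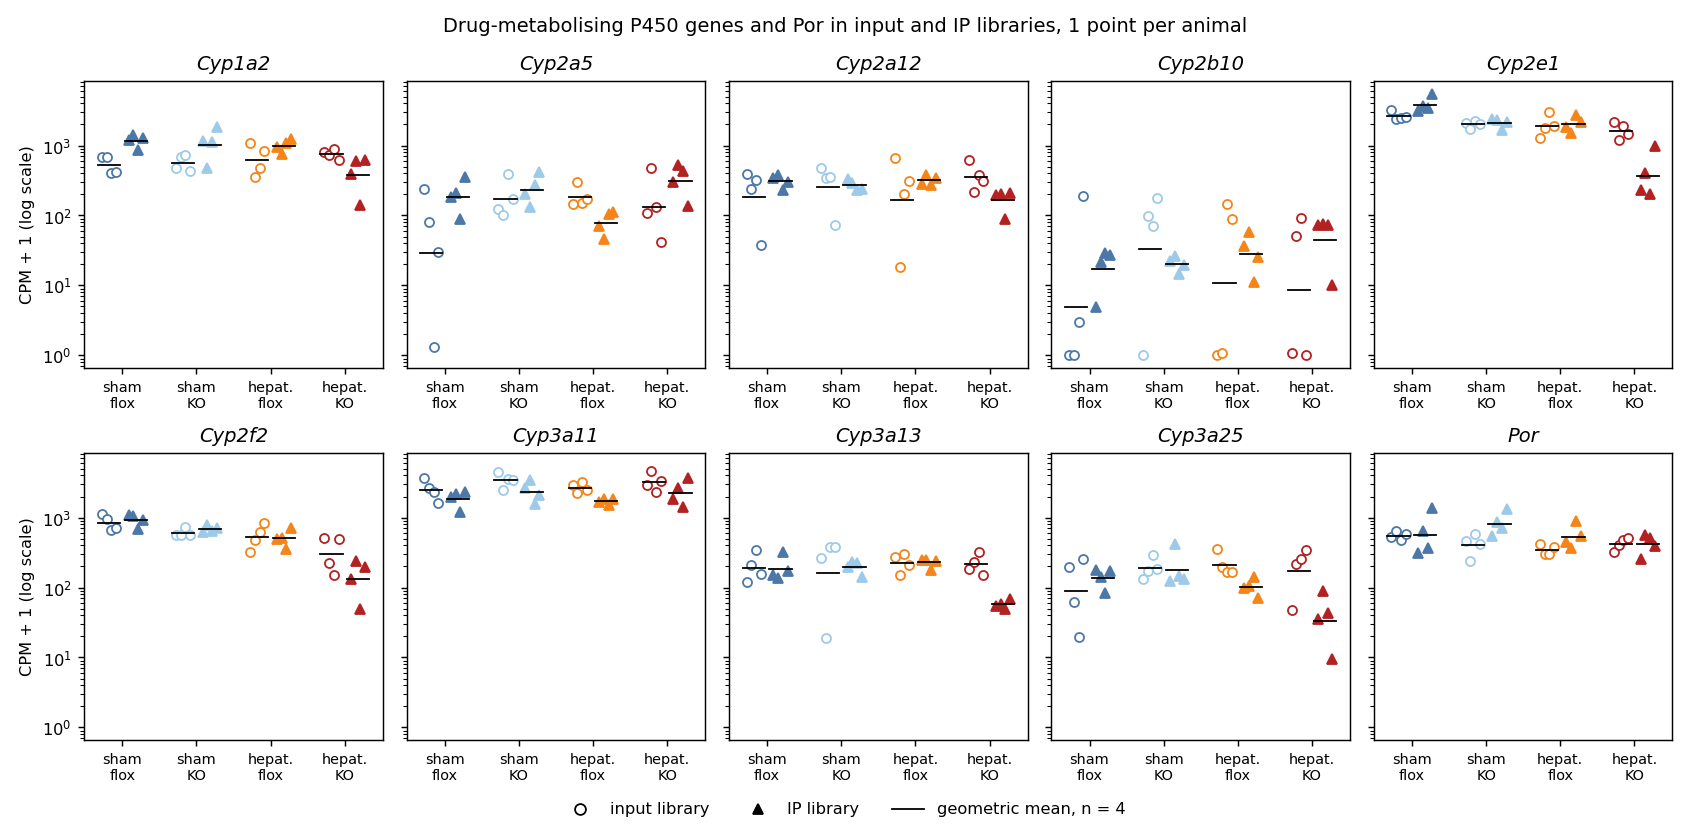
CPM + 1 (log axis) of the 9 P450 genes and Por in each of the 16 input libraries (open circles) and 16 IP libraries (filled triangles) by group, with geometric means of 4 animals as bars. The IP points of Cyp2e1, Cyp2f2 and Cyp3a13 are low in hepatectomised KO animals (Cyp2e1 at 201 to 993 CPM against 1513 to 2735 CPM in hepatectomised flox), while their input points overlap between those groups, and Cyp2b10 inputs range from 0 to 189 CPM.

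Cyp2e1 had the largest fall of the members in IP. Its IP level was 1845, 1513, 2735 and 2182 CPM in hepatectomised flox replicates 1 to 4, and 233, 401, 201 and 993 CPM in hepatectomised KO. All 4 KO libraries lay below all 4 flox libraries, and KO replicate 4 was the highest of them. The log2 change was -2.45 (SE 0.39, 5.46-fold lower, adjusted p = 0.00072, edgeR). Its input held 1278, 1797, 3027 and 1873 CPM in the same flox animals and 2140, 1209, 1894 and 1457 CPM in the KO animals, with overlapping ranges and a log2 difference of -0.05 (SE 0.24, adjusted p = 1). In input Cyp2e1 thus lay below the median of all genes, which was 0.46 in this comparison (0.11 with a filter at a mean of 50 CPM). The IP call remained in each of 8 fits that left out 1 animal (log2 -3.16 to -2.21) and in each of the other 7 alternatives run for it.

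Cyp3a13, a minor 3A form of liver and gut, fell by 2.29 on the log2 scale in IP (SE 0.38, adjusted p = 0.0013, edgeR). It held 250.001, 249.2, 179 and 241 CPM in hepatectomised flox and 54, 57.3, 47.6 and 68.4 CPM in hepatectomised KO animals, without overlap and with the tightest KO group of all members. The input was 274, 151, 300.4 and 207 CPM in flox and 186, 229, 324 and 149.9 CPM in KO animals, with overlapping ranges. Cyp2f2 held 499, 515, 353 and 703 CPM in hepatectomised flox IP and 133, 242, 48.9 and 195 CPM in hepatectomised KO IP, again without overlap. Its log2 change was -2.03 (SE 0.38, adjusted p = 0.0033), where its input differed by -0.56 (SE 0.49, adjusted p = 0.99). The median of all genes in input was 0.46, so Cyp2f2 lay below it there too. The calls of Cyp3a13 and Cyp2f2 remained in each of the 8 fits without 1 animal and in the other 7 alternatives.

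Cyp1a2 held 941, 755, 1071 and 1256 CPM in hepatectomised flox IP and 386, 604, 141 and 621 CPM in hepatectomised KO IP. The groups did not overlap, and the log2 change was -1.47 (SE 0.37, adjusted p = 0.04, edgeR). The call ended without TMM factors (adjusted p = 0.15), in a fit of only the libraries compared (0.083), and without flox replicate 1, 3 or 4 or KO replicate 1 or 3 (0.074 to 0.13). Cyp2a12, a steroid hydroxylase, held 282, 382, 273 and 348 CPM against 194, 203, 89.1 and 207 CPM, also without overlap, and its log2 difference of -1.17 (SE 0.34, adjusted p = 0.083) was not called, although DESeq2 called it (-1.04, adjusted p = 0.027).

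Cyp2a5 was the member called higher in IP in this comparison. It held 69, 44.9, 103 and 110.2 CPM in hepatectomised flox IP and 302, 518, 432 and 136 CPM in hepatectomised KO IP, with no overlap. Its log2 change was 1.82 (SE 0.45, adjusted p = 0.031, edgeR). The call ended without any 1 of the 4 flox animals or of KO replicates 1, 2 and 3 (adjusted p = 0.057 to 0.12), without the animals aged 77 days (0.051) and in the fit of only the libraries compared (0.071). In sham IP Cyp2a5 held 86.7 to 352 CPM in flox and 132 to 424 CPM in KO, and both ranges overlapped that of hepatectomised KO. Its log2 change with surgery was 0.41 in KO (adjusted p = 0.97, edgeR) and -1.28 in flox animals (adjusted p = 0.63). Its near-identical copy Cyp2a4 could have shared reads with it: Cyp2a4 reached at most 2.31 CPM in hepatectomised flox IP and 43.3 CPM in hepatectomised KO IP, with a log2 difference of 4.22 that was not called (adjusted p = 0.34). Cyp3a11 reads could likewise have been split with the related Cyp3a16, Cyp3a41a, Cyp3a41b, Cyp3a44 and Cyp3a59, of which none exceeded 65.6 CPM in any library.

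Cyp3a11, Cyp3a25 and Por did not pass the test in this comparison. Cyp3a11 held 1673, 1870, 1530 and 1861 CPM in hepatectomised flox IP and 1862, 2638, 1431 and 3692 CPM in hepatectomised KO IP, with overlapping ranges (log2 difference 0.19, SE 0.32, adjusted p = 0.94, edgeR). Cyp3a25 held 96.2, 102, 140.0 and 71 CPM against 34.4, 86.8, 42.9 and 8.41 CPM (-1.53, SE 0.54, adjusted p = 0.19), and the ranges overlapped. Por held 448, 360.4, 895 and 547 CPM against 257, 566, 502 and 393 CPM (-0.66, SE 0.40, adjusted p = 0.57). Over the 10 members the log2 differences ran from -2.45 to 1.82 with a median of -1.32, and 7 were below 0, against a median of 0.01 over all genes tested. In 5 members all 4 KO libraries were below all 4 flox libraries and in 1 they were all above. Such separation in either direction was found for 8% of all genes tested.

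**Figure D2:**
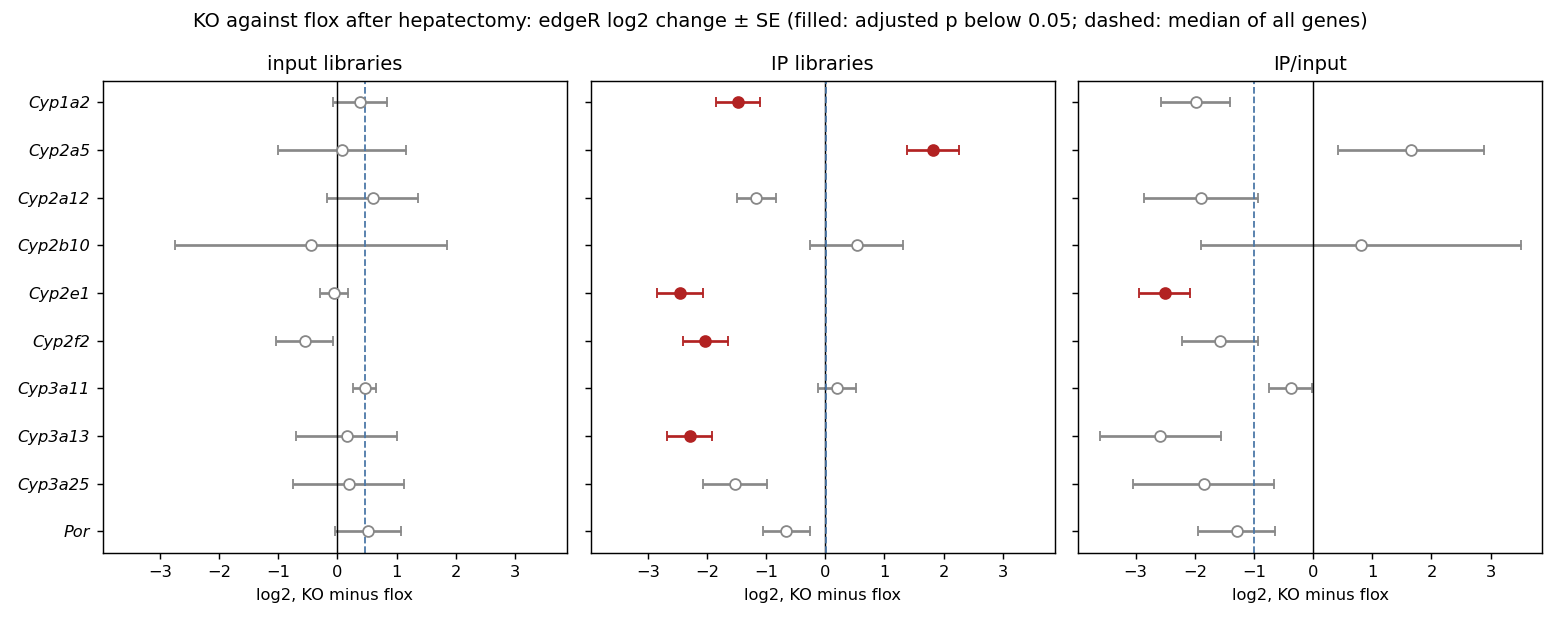
Log2 difference of KO from flox after hepatectomy (x axis, ± SE, edgeR) for each member (y axis) in input libraries, IP libraries and as IP/input. Filled points passed an adjusted p of 0.05 (0 in input, 5 in IP with Cyp2a5 at 1.82 to the right of 0, and Cyp2e1 at -2.51 in IP/input), and dashed lines are medians of all genes tested (0.46, 0.01 and -0.99).

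Marker lists of hepatocytes and other cell types were read in the same IP libraries. The summed IP level of the 10 hepatocyte markers was 27586 to 80870 CPM in hepatectomised KO and 82065 to 93822 CPM in hepatectomised flox animals, and 2 of the 10 were called lower (Fgb, log2 -1.53, and Apoa1, -1.44, edgeR adjusted p = 0.0096 for each). Their median log2 difference was -1.05, with 9 of the 10 below 0 and 6 lower at an unadjusted p under 0.05. DESeq2 called 4 of them lower. Over all genes tested in IP 13.3% had an unadjusted p under 0.05 in this comparison, in either direction, which is the background for each list here. The summed level of 11 stellate cell markers was 859 to 1112 CPM against 315 to 483 CPM, of 11 Kupffer cell markers 542 to 1401 against 467 to 716 CPM, and of 11 endothelial markers 726 to 1491 against 599 to 834 CPM. None of these 33 markers was called by edgeR (2 stellate, 2 Kupffer and 0 endothelial at an unadjusted p under 0.05), DESeq2 called Lrat and Cd68 higher, and the median log2 differences were 0.96, 0.55 and 0.53. The 9 cholangiocyte markers summed to 54.5 to 236 CPM against 9.99 to 189 CPM, and the 13 blood markers to 73.1 to 532 against 34.2 to 235.97 CPM. None of these was called by edgeR or DESeq2 (0 cholangiocyte and 1 blood at an unadjusted p under 0.05), with medians of 0.22 and -0.69 over the 7 and 9 tested. In input the hepatocyte sums overlapped (79670 to 97491 CPM in hepatectomised KO, 91722 to 95077 CPM in hepatectomised flox). Of the 10 markers 1, Trf, was called higher in KO input (0.44, adjusted p = 0.02, edgeR), which was level with the median of all genes (0.46). There 2 cholangiocyte, 1 stellate and 5 blood markers had 0 counts in all 16 libraries. Fewer cells of a type and less RNA per cell cannot be told apart in bulk RNA, and the part of these values in the result was not tested.

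Counts of the members relative to Cyp3a11 in the same library need no scaling between libraries. Cyp3a11 was taken as the base after its values had been seen, so these ratios are a description. The genes given were those called lower in the same IP libraries, so their lower ratios there are no separate test. Mean Cyp3a11 in IP was 2406 CPM in hepatectomised KO and 1734 CPM in hepatectomised flox animals. In sham KO and sham flox it was 2451 and 1903 CPM in IP and 3503 and 2565 CPM in input. A higher base in KO lowers the KO ratios. In IP, Cyp2e1 had 1.1, 0.809, 1.79 and 1.17 counts for each count of Cyp3a11 in hepatectomised flox replicates 1 to 4 and 0.125, 0.152, 0.14 and 0.269 in hepatectomised KO. In sham livers the ratio was 1.6 to 2.91 in flox and 0.663 to 1.07 in KO animals, so it was also lower in every sham KO than in every sham flox library. In input it was 0.444 to 0.928 in hepatectomised flox and 0.258 to 0.82 in hepatectomised KO, with overlap, and 0.885 to 1.6 in sham flox against 0.465 to 0.702 in sham KO, without overlap. The sham input ratio of Cyp2f2 did not overlap either (0.279 to 0.442 in flox, 0.127 to 0.226 in KO). Those of Cyp1a2 and Cyp3a13 overlapped. The share of all genes whose ratio to Cyp3a11 separated between the sham groups was not counted. The IP ratio of hepatectomised KO animals was below that of hepatectomised flox animals for Cyp1a2 (0.0985 to 0.229 against 0.404 to 0.7), Cyp2f2 (0.0342 to 0.0916 against 0.231 to 0.378) and Cyp3a13 (0.0185 to 0.0332 against 0.117 to 0.149). In input these ratios overlapped for all 3 genes.

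**Figure D3:**
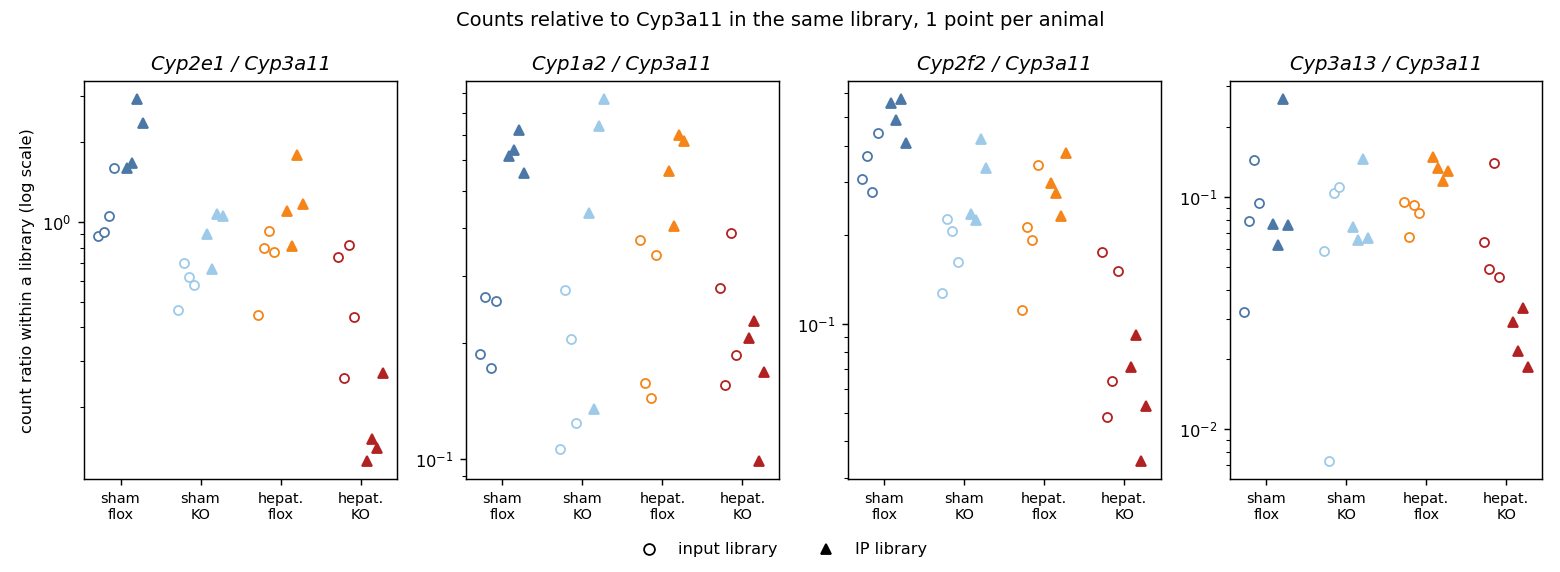
Counts of Cyp2e1, Cyp1a2, Cyp2f2 and Cyp3a13 divided by the counts of Cyp3a11 in the same library (log axis, no units) by group, open circles for input and filled triangles for IP, 1 point per animal. In hepatectomised KO animals the 4 IP points of each gene lie below the IP points of hepatectomised flox animals, as for Cyp2e1 at 0.125 to 0.269 against 0.809 to 1.79, while the input points of those groups overlap.

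The promoters of the members that moved in IP are shown beside those of Cyp3a11, since members of the family share regulators. Each is the 120 bases before the gene's start in RefSeq on GRCm38.p6, 5′ to 3′ on the gene's strand, with motif matches in capitals: Cyp2e1 chr7:140763699-140763818 (plus strand), Cyp1a2 chr9:57683656-57683775 (minus strand), Cyp2f2 chr7:27119835-27119954 (plus strand), Cyp3a13 chr5:137921620-137921739 (minus strand), Cyp2a5 chr7:26835219-26835338 (plus strand) and Cyp3a11 chr5:145879855-145879974 (minus strand).
Cyp2e1: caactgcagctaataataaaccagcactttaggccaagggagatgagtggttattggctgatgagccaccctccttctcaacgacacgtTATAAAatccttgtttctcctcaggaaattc
Cyp1a2: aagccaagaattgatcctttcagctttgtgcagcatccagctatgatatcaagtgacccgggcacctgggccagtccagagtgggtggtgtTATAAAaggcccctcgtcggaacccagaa
Cyp2f2: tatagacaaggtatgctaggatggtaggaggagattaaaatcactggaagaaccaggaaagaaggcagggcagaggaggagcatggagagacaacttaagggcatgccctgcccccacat
Cyp3a13: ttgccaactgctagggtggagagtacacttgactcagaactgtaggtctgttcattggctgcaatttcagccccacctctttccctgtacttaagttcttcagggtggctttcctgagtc
Cyp2a5: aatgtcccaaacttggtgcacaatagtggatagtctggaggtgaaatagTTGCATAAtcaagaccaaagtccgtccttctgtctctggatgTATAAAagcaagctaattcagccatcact
Cyp3a11: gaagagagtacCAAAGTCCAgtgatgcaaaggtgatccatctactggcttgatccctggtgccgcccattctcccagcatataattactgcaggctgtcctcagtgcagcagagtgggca
The windows searched ran from 250 bases before to 50 bases after each start, on both strands. TATAAA (the TATA box) was found in 13.6% of the 32544 promoters, and it began 31 bases before the start in Cyp2e1 and 29 bases before it in both Cyp1a2 and Cyp2a5. Cyp2a12 held it at 39 bases before the start, and Cyp3a11 at 234. CAAAGNNCA, the HNF4 type, was in 6.38% of promoters. It began 109 bases before the start in Cyp3a11, 74 in Cyp2a12 and 180 in Cyp3a25. TTGCNNAA, the C/EBP type, was in 10.8%. It began 71 bases before the start in Cyp2a5, 58 in Cyp2b10 and 89 in Cyp3a25. GTTAATNAT, the HNF1 type, was in 0.808%, and GCGTG, the core of the aryl hydrocarbon receptor site, in 32.6%. The members Cyp2b10 and Por held GCGTG. Of the 6 promoters printed none held these last 2 motifs, and those of Cyp2f2 and Cyp3a13 held none of the 5. No searched motif was common to all 4 members that fell in IP, which says only that these letters are not in this window.

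Sham livers showed the members without a called genotype difference. In IP, KO against flox in sham called 0 of 10 members with edgeR (0.0927% of all genes) and 0 with DESeq2 (186 genes called). In edgeR 1 member had an unadjusted p under 0.05 (5.69% of all genes). That member was Cyp2e1, which held 3110, 3631, 3493 and 5434 CPM in sham flox and 2404, 2322, 1663 and 2204 CPM in sham KO. All 4 KO libraries lay below all 4 flox libraries, as they did in input. The share of all genes whose levels separated in this way in sham livers was not counted. The log2 difference of Cyp2e1 was -0.98 (SE 0.37, adjusted p = 0.71). With no filter on low counts it was called (-0.97, adjusted p = 0.022). The other 9 members ran from -0.55 (Cyp2f2) to 0.48 (Cyp3a25).

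Surgery alone gave the members no called change in flox animals. In IP, hepatectomy against sham in flox called 0 of 10 with edgeR (0.0285% of all genes) and 0 with DESeq2 (274 genes called). In edgeR 3 members had an unadjusted p under 0.05 (6.93% of all genes). The log2 differences ran from -1.28 for Cyp2a5 to 0.77 for Cyp2b10, with Cyp2e1 at -0.87 (adjusted p = 0.63) and Cyp2f2 at -0.80 (adjusted p = 0.66).

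In KO animals, hepatectomy against sham called 4 of 10 members in IP, all lower, where 0.635% of all genes were called and 0.585% were called lower (7 higher and 82 lower, and 83 and 331 with DESeq2). This comparison shares the hepatectomised KO libraries with the one above. Cyp2e1 held 2404, 2322, 1663 and 2204 CPM in sham KO IP and, as given, 201 to 993 CPM after hepatectomy (log2 -2.34, SE 0.39, adjusted p = 0.0034, edgeR). Cyp2f2 held 624, 785, 650.1 and 704 CPM in sham KO against 48.9 to 242 CPM (-2.27, SE 0.38, adjusted p = 0.0034). Neither group overlapped the other for these genes, and the share of all genes without overlap was not counted in this comparison.

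Cyp3a13 held 198, 229.6, 225 and 139.7 CPM in sham KO IP against 47.6 to 68.4 CPM after hepatectomy (-1.92, SE 0.38, adjusted p = 0.012). Cyp3a25, a 3A form of adult liver, held 123, 413, 146 and 129 CPM against 8.41 to 86.8 CPM (-2.42, SE 0.56, adjusted p = 0.036). In a fit of only the 8 libraries compared, none of the 4 calls remained (adjusted p = 0.068 for both Cyp2e1 and Cyp2f2). The Cyp3a13 call ended without sham KO replicate 2 (adjusted p = 0.061) or hepatectomised KO replicate 3 (0.054), and the Cyp3a25 call without sham KO replicate 2 (0.34) or 3 (0.052) or hepatectomised KO replicate 1 (0.12) or 3 (0.10), without TMM factors (0.057) and without the animals aged 77 days (0.055). Without the least deep IP library, hepatectomised KO replicate 4, Cyp1a2 was called too (-1.64, adjusted p = 0.024).

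The difference between the genotype effects in the 2 surgeries was tested by the interaction, and no member passed in IP with edgeR (0.0285% of all genes). At an unadjusted p under 0.05 there were 6 members (7.88% of all genes). DESeq2 called 268 genes and 1 of them was a member, Cyp3a13 (-2.08, adjusted p = 0.0064). In edgeR Cyp3a13 was at -2.22 (SE 0.52, adjusted p = 0.18), Cyp2e1 at -1.47 (SE 0.52, adjusted p = 0.51) and Cyp2f2 at -1.47 (SE 0.51, adjusted p = 0.49). Without hepatectomised KO replicate 4 both Cyp2e1 (-2.19, adjusted p = 0.021) and Cyp3a13 (-2.32, adjusted p = 0.036) were called. A KO effect confined to hepatectomised animals was thus not shown by the fit of all animals.

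Within each group IP was set against input, 2 kinds of library made with different kits, so this ratio holds the pull-down and the kits together. A call here also needed a log2 IP/input of at least 1 in size. In hepatectomised KO livers Cyp2e1 was the 1 member called, with 4.34-fold fewer counts in IP than in input (log2 -2.12, SE 0.31, adjusted p = 9.8e-06, edgeR), where 0.328% of all genes were called and 0.307% were called lower. The call ended in a fit of only the libraries compared (adjusted p = 0.064). Of the 10 hepatocyte markers 5 were called lower by edgeR in the same group, and all 10 were below 0 (median -1.105). The members Cyp3a13 (-1.86, adjusted p = 0.016) and Cyp3a25 (-2.20, adjusted p = 0.018) were also called by DESeq2, which over all genes called 1813 higher and 227 lower, where edgeR called 3 and 44.

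No member was called within the other groups. The background was 0.258% of genes in sham flox, 0.0209% in sham KO and 1.21% in hepatectomised flox animals. At an unadjusted p under 0.05 there were 2, 1 and 2 members, against 30.3%, 20.5% and 34.9% of all genes. DESeq2 called 0 members in each, and over all genes 3537, 2075 and 4127 after the same filter, which kept 14328 genes. Cyp1a2 came closest to a call, at 1.35 in sham flox (SE 0.41, adjusted p = 0.081, edgeR). It was 0.76 in sham KO, 0.94 in hepatectomised flox and -1.05 in hepatectomised KO livers, where the median gene was at 0.71, 1.27 and 0.31 (0.95 in sham flox). Cyp1a2 thus lay above the median gene in sham flox, near it in sham KO and below it after hepatectomy in both genotypes. The median depended on the filter and was 0.16 in hepatectomised flox with the filter at a mean of 50 CPM. No change with surgery is therefore drawn from these positions. Cyp3a11 had values between -0.66 and -0.19 in the 4 groups.

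The log2 IP/input of Cyp2e1 was called lower in hepatectomised KO livers against hepatectomised flox and against sham KO livers, and the interaction was not called (-1.67, SE 0.60, adjusted p = 0.13, edgeR). Against hepatectomised flox it was -2.51 (SE 0.43, adjusted p = 0.00034, edgeR), where 0.712% of all genes were called and 0.705% were called lower (1 higher and 101 lower, and 618 and 2613 with DESeq2). Of the 10 hepatocyte markers 3 were called lower by edgeR in this comparison, and all 10 were below 0 (median -1.05). The median of all genes was itself -0.99 there, so Cyp2e1 lay 1.52 below it (-1.52 relative to the median). The median was -0.46 without TMM factors and -0.32 with DESeq2, and the Cyp2e1 call remained in all 8 alternatives run and in all 8 fits without 1 animal. Against sham KO the difference was -2.07 (SE 0.43, adjusted p = 0.029), where 0.0349% of genes were called and all of these were lower. That call ended without sham KO replicate 1, 2 or 4 or hepatectomised KO replicate 1 or 3 (adjusted p = 0.076 to 0.42), with a filter at a mean of 50 CPM (0.077) and in a fit of only the libraries compared (0.16).

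The other members did not pass this test. After hepatectomy KO differed from flox by -1.98 for Cyp1a2 (SE 0.58, adjusted p = 0.063, edgeR), -2.58 for Cyp3a13 (SE 1.03, adjusted p = 0.12) and -1.58 for Cyp2f2 (SE 0.64, adjusted p = 0.13). For Cyp3a11 the difference was -0.38 (SE 0.36, adjusted p = 0.75), and its sign turned with the scaling (0.19 without TMM factors, 0.30 with DESeq2). No member was called for KO against flox in sham (0.0209% of genes), for surgery in flox (0.181%) or for the interaction (0.0419%). An unadjusted p under 0.05 was found for 1, 0 and 1 members in these (14.8%, 20.4% and 14.4% of all genes). DESeq2 called 0 members in each, and over all genes 2483, 3349 and 3190.

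Taken animal by animal, log2 IP/input of Cyp2e1 was -3.19, -1.59, -3.23 and -0.55 in hepatectomised KO replicates 1 to 4 (CPM with a pseudocount of 1, by library total). The hepatectomised flox animals had 0.53, -0.25, -0.15 and 0.22. Sham KO animals had 0.21, 0.43, -0.42 and 0.13, and sham flox animals -0.06, 0.61, 0.50 and 1.07. Every hepatectomised KO animal lay below every animal of the other 3 groups. KO minus flox after hepatectomy was -2.23 (exact 2-sided permutation p = 0.0286, the smallest that 4 animals against 4 can give), and hepatectomised minus sham KO was also -2.23 (exact permutation p = 0.0286).

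Cyp3a13 was -1.76, -1.98, -2.74 and -1.12 in hepatectomised KO and -0.13, 0.72, -0.74 and 0.21 in hepatectomised flox animals, a difference of -1.92 (exact permutation p = 0.0286). Cyp2a5 was 1.46, 0.12, 1.71 and 1.73 against -1.07, -2.71, -0.55 and -0.65, a difference of 2.50 (exact permutation p = 0.0286). For Cyp1a2 the difference was -1.67 (exact permutation p = 0.0571), for Cyp2f2 -1.11 (exact permutation p = 0.0857) and for Por -0.67 (exact permutation p = 0.114). For Cyp3a11, at 0.13, it was smaller than the SD within either group (exact permutation p = 0.686). Of the 40 tests of this kind (10 members in 4 contrasts) 5 reached the smallest p, which needs groups that do not overlap: 0 for KO against flox in sham, 3 after hepatectomy, 1 for surgery in flox and 1 for surgery in KO. Over all genes such groups were found for 2.85%, 4.29%, 2.73% and 3.58%. The value for surgery in flox was that of Cyp2a5 (-3.90), which rests on sham flox inputs as low as 0.294 CPM.

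**Figure D4:**
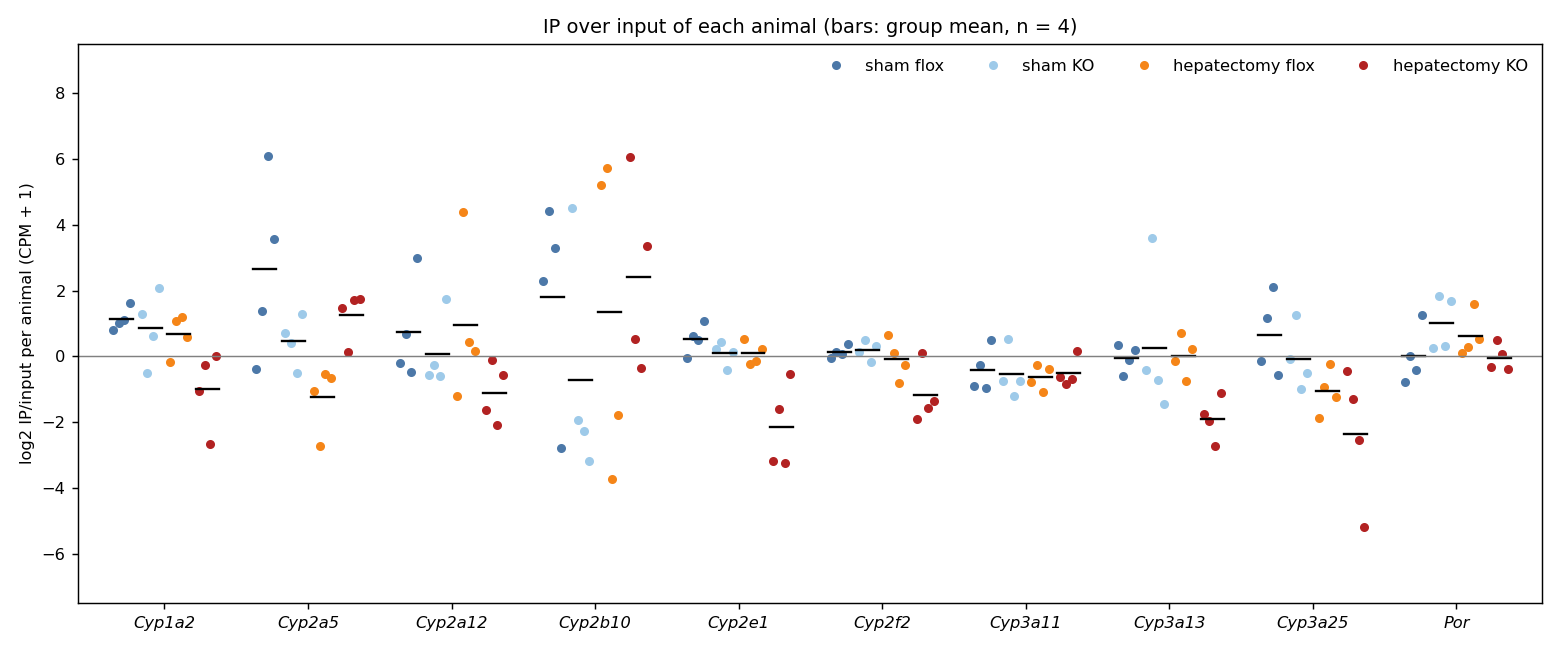
Log2 IP/input of each animal (y axis, CPM with a pseudocount of 1) for the 10 members (x axis), coloured by group, with the mean of 4 animals as a bar. The 4 hepatectomised KO points of Cyp2e1 (-3.23 to -0.55) lie below all points of the other groups, Cyp3a11 means stay between -0.63 and -0.41, and Cyp2b10 and Cyp2a5 are widely scattered.

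Genes whose log2 IP/input moved most like that of a member over the 16 animals were found among the 2191 genes whose mean reached 50 CPM in input as well as IP. The measure was the mean absolute difference of centred values, and the median gene was at 1.64 to 1.89 for the 4 members taken. For Cyp2e1 they were Egfr (0.431), the receptor of EGF, Aqp9 (0.436), a glycerol channel of hepatocytes, and Ces3a (0.438), a carboxylesterase. The mean log2 IP/input of Egfr was -1.94 in hepatectomised KO animals and 0.16 in hepatectomised flox. For Cyp1a2 they were Cpn2 (0.504), Hrg (0.534) and Sgms2 (0.537), and for Cyp2f2 Vtn (0.322) and Cdo1 (0.342). For Cyp3a11 they were Alb (0.241), Gstp1 (0.3) and Ahsg (0.31). Values of 1 animal share its libraries and their depth.

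Among the other genes of the pathway, some on a list of receptors and regulators of P450s were called in IP after hepatectomy. Of the 22 tested edgeR called 5 lower in KO than flox and 0 higher, with a list median of -0.26 against 0.01 over all genes. DESeq2 called 5 lower and 1 higher. Whether the genes of this list acted on the members was not tested. Ppara, the receptor of fatty acids, went from 288 to 587 CPM in hepatectomised flox to 50.2 to 147.5 CPM in KO (log2 -2.66, SE 0.43, adjusted p = 0.00093, edgeR). Cebpa, a factor of hepatocyte identity, went from 619 to 1260 CPM to 93.3 to 592 CPM (-2.14, SE 0.42, adjusted p = 0.0058). Hnf4a fell from 882 to 1247 CPM to 314 to 671 CPM (-1.29, SE 0.28, adjusted p = 0.014), and Foxa1 fell by 2.69 on the log2 scale (adjusted p = 0.025). Rxra, the fifth, was at -1.15 (adjusted p = 0.04). The groups did not overlap for any of these 5 genes.

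The calls of Hnf4a, Foxa1 and Rxra ended without TMM factors, and those of Foxa1 and Rxra in the fit of only the libraries compared. Without hepatectomised KO replicate 4 there were 7 calls, all lower. Receptors of foreign compounds did not pass: Nr1i2 (PXR) was at 0.24, Ahr at -0.71 and Nr1i3 (CAR) at -2.75 with an SE of 1.27 (adjusted p = 0.96, 0.43 and 0.33). In hepatectomised against sham KO animals Hnf4a (-1.28, adjusted p = 0.029) and Ppara (-1.96, adjusted p = 0.027) were lower, and of IP/input after hepatectomy Hnf4a was the 1 called (-2.13, adjusted p = 0.04). Neither surgery call remained in the fit of only the libraries compared, and without TMM factors that of Hnf4a ended.

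Other P450s of families 1 to 3 gave 1 call of 19 tested, Cyp2j5, an epoxygenase of arachidonic acid (271.8 to 317 CPM in hepatectomised flox IP, 44.5 to 131 CPM in KO; log2 -1.93, SE 0.40, adjusted p = 0.0096, edgeR). The list median was -0.74. In hepatectomised against sham KO animals Cyp2j5 (-1.96, adjusted p = 0.017) and Cyp2d10 (-2.36, adjusted p = 0.045) were lower, but neither call remained in the fit of only the libraries compared and that of Cyp2d10 ended without TMM factors. In KO against flox after hepatectomy none of the 9 electron transfer partners beside Por was called in IP by edgeR or DESeq2. Nor was any of the 13 genes of heme synthesis and breakdown. At an unadjusted p under 0.05 there were 2 and 0 (13.3% of all genes), and the list medians were -0.56 and 0.09. Cyb5a was at -0.34 and Alas1, the rate-limiting enzyme of heme synthesis, at -0.57. Among 17 other phase I enzymes Cbr1, a carbonyl reductase, rose (1.61, SE 0.37, adjusted p = 0.02), and in sham animals Aldh1b1 rose in KO (2.44, SE 0.37, adjusted p = 0.0017), which is also on the periportal list.

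Zonal genes gave a similar mix. Of 17 pericentral genes Glul, glutamine synthetase of the last hepatocytes before the central vein, fell from 1010 to 1175 CPM in hepatectomised flox IP to 228 to 371 CPM in KO (log2 -1.998, SE 0.30, adjusted p = 0.00048, edgeR). It also fell in sham KO against sham flox animals (-2.06, adjusted p = 0.00097). Slc1a2, a glutamate transporter, fell by 2.60 on the log2 scale after hepatectomy (adjusted p = 0.0078), and the glutathione transferase Gstm3 rose both after hepatectomy (3.28, adjusted p = 0.00074) and in sham animals (3.81, adjusted p = 0.0007). Of 17 periportal genes G6pc (-2.36, adjusted p = 0.0017) and Pck1 (-1.59, adjusted p = 0.025), both of glucose synthesis, were lower after hepatectomy, and the Pck1 call ended without TMM factors and in the fit of only the libraries compared. In hepatectomised against sham KO animals the periportal genes Gls2 (-2.55, adjusted p = 0.013), Hal (-1.97, adjusted p = 0.042) and Pck1 (-1.71, adjusted p = 0.03) and the pericentral Cyp27a1 (-1.71, adjusted p = 0.047) were lower. None of these 4 calls remained in the fit of only the libraries compared, and without TMM factors that of Gls2 alone did. The pericentral median was -1.08 and the periportal -0.61 after hepatectomy, so the lower members included genes of both zones, as did Cyp2e1 and Cyp1a2 (pericentral) and Cyp2f2 (periportal).

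**Figure D5:**
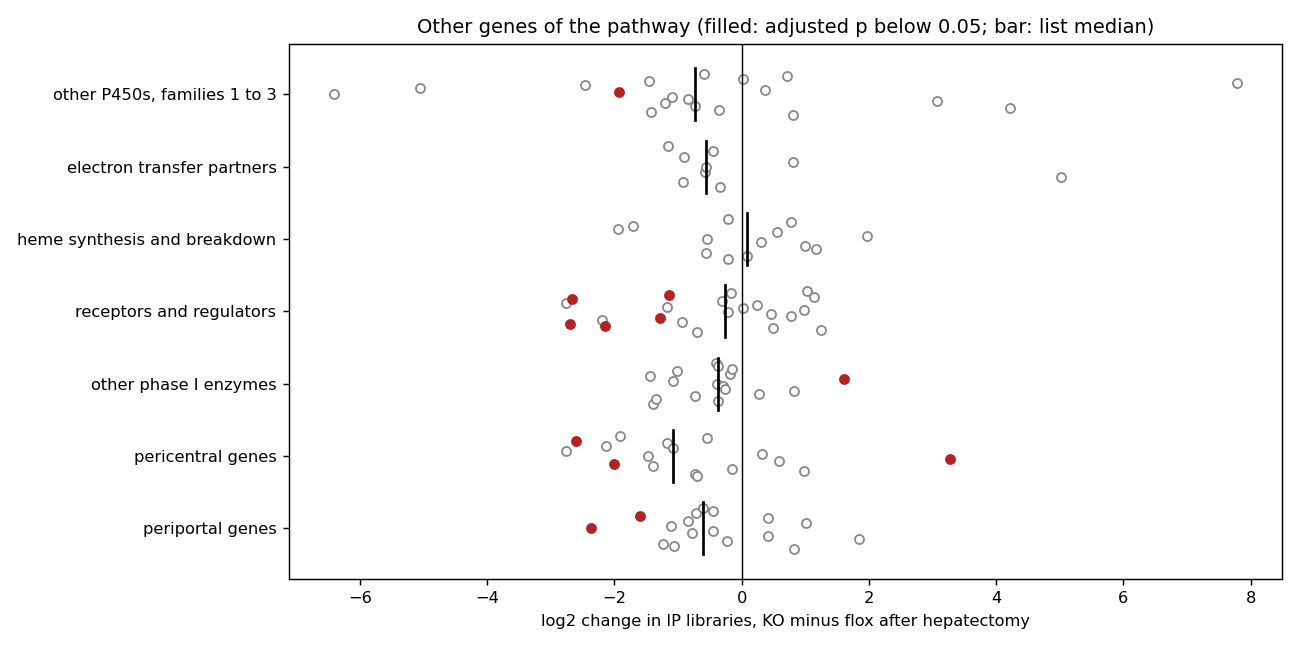
Log2 difference of KO from flox after hepatectomy in IP libraries (x axis, edgeR) for the genes of 7 lists (y axis), 1 point per gene, filled where the adjusted p was below 0.05, with list medians as bars. The receptors and regulators hold 5 filled points, all left of 0, and Gstm3 at 3.28 is the filled point farthest to the right.

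Positions of the members are those of the deposited table, for which no source used here names the genome build. Cyp2e1 (ENSMUSG00000025479) lay on chromosome 7 from 140763739 to 140774987, plus strand, in 9 exon blocks. Cyp2f2 (ENSMUSG00000052974) lay on chromosome 7 from 27119909 to 27133660, plus strand. Cyp2a5 (ENSMUSG00000005547, 26835305 to 26843548), Cyp2a12 (ENSMUSG00000060407, 27029081 to 27037375) and Cyp2b10 (ENSMUSG00000030483, 25897620 to 25926624) lay on the same strand of the same chromosome. Cyp1a2 (ENSMUSG00000032310) lay on chromosome 9 from 57676937 to 57683703, minus strand. Cyp3a11 (ENSMUSG00000056035, 145854426 to 145879964), Cyp3a25 (ENSMUSG00000029630, 145977194 to 146009618) and Cyp3a13 (ENSMUSG00000029727, 137892932 to 137921619) lay on the minus strand of chromosome 5, and Por (ENSMUSG00000005514, 135670033 to 135735326) on its plus strand. All 10 are protein-coding. A gene overlapping Cyp2f2 held 1376 counts over all libraries and one overlapping Cyp3a13 held 1397, against 253561 and 83417 counts of the members.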

How the data were processed

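The submitters' processing notes name fastp, a read trimmer, and STAR, an aligner. No source used here names their versions, the counting program, its strand setting or the genome build. Input libraries came from a stranded mRNA kit, and IP libraries from another kit and fragmented total RNA, per the labels' protocols. The authors deposited a table of estimated counts per gene and library, not normalized, of which 1.33% to 8.22% in a column were not whole. They were rounded. Genes were named by position on RefSeq GRCm38.p6 (34196 named, 1026 after a shift of 1000000 bases).

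edgeR 4.0.16 in R 4.3.3 was fitted with TMM factors, filterByExpr (minimum count 10) and quasi-likelihood tests over all genes: the 16 input libraries, the 16 IP libraries, and all 32 for IP/input. Alternatives were no TMM factors, DESeq2 1.42.0, no filter, a mean of 50 CPM, no animals aged 77 days, only the libraries compared, each animal left out, and blocks. The scripts were tested on simulated data. Counting intervals and floors (3 counts) cover counting error only, since reads copied by PCR are not separate molecules and no source used here names molecular identifiers.

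The animal code pairs input and IP, although after removal of group means they correlated at -0.23 to 0.31 (median 0.074, 210 genes). With the animal as a block no member call changed. The members, the 13 gene lists and the tests were chosen with earlier results of these data known. Named genes are the 10 members, up to 4 called genes of a list by smallest p, Rxra, and the 3 genes most like each of 4 members (1 of them is not reported here); the named genes that were not called (Nr1i2, Nr1i3, Ahr, Cyb5a, Alas1, Lrat, Cd68, Cyp2a4 and the Cyp3a copies) and Rxra were chosen after their values were seen.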

Additional observations from a re-analysis of the deposited data

Results flagged for a closer look

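Of 120 groups of 4 values (10 members in input, IP and log2 IP/input), 10 held a value that stood apart from the others of its group by Dixon's test, where chance gives about 6. In input these were Cyp2b10 in sham flox replicate 4 (189 CPM, others 0, 0 and 1.96), Cyp2f2 in sham KO replicate 3 (736 CPM, others 554 to 570) and Cyp3a25 in hepatectomised flox replicate 1 (358 CPM, others 164 to 195). In IP they were Cyp2a12 in hepatectomised KO replicate 3 (89.1 CPM, others 194 to 207), Cyp2b10 in hepatectomised KO replicate 4 (9.25 CPM, others 71.1 to 73.4), Cyp3a13 in hepatectomised flox replicate 3 (179 CPM, others 241 to 250) and Cyp3a25 in sham KO replicate 2 (413 CPM, others 123 to 146). In log2 IP/input they were Cyp2a12 in sham KO replicate 4 (1.73, others -0.60 to -0.25), Cyp2a5 in hepatectomised KO replicate 2 (0.12, others 1.46 to 1.73) and Cyp2b10 in sham KO replicate 1 (4.50, others -3.18 to -1.93).

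The log2 IP/input of Cyp2e1 differed between groups in 2 tests: -2.51 against hepatectomised flox (adjusted p = 0.00034, edgeR) and -2.07 against sham KO (adjusted p = 0.029, edgeR). The interaction was not called (adjusted p = 0.13).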

How the results depend on the processing

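The 12 called values of members kept their sign in all 179 alternative fits and lost the call in 36 of them; 178 values that were not called changed sign in 168 of 2797 fits and were called in 21. The number of members called changed as follows. With the replicate number as a block, or without the animals aged 77 days, input in sham KO against flox gave 1 (0 in the fit reported). Same-numbered animals of different groups correlated at -0.41 to 0.56 (median -0.042), so the number does not pair them, and the block changed no other count of members called. With no filter IP gave 1 for KO against flox in sham and 1 for the interaction, and DESeq2 gave 1 for the interaction. In fits of only the libraries compared IP gave 3 for KO against flox after hepatectomy (5 reported) and 0 for surgery in KO (4 reported), IP over input gave 1 within sham flox and 0 within hepatectomised KO (0 and 1 reported), and IP/input gave 0 for surgery in KO (1 reported), as it did at 50 CPM. Within hepatectomised KO, DESeq2 gave 3 and the 50 CPM filter 2. With each animal left out the counts were 0 to 1 in input for KO against flox in sham, 3 to 6 in IP for KO against flox after hepatectomy, 2 to 5 for surgery in KO and 0 to 2 for the interaction, and in IP/input 0 to 1 both for surgery in KO and for the interaction. The IP difference of Cyp3a11 between hepatectomised KO and flox (0.19) ran from -0.09, without hepatectomised KO replicate 4, to 0.37. Its IP/input difference (-0.38) was 0.19 without TMM factors, 0.30 with DESeq2 and 0.00 at 50 CPM, and per animal (0.13) it was -0.44 with TMM factors. The cause of these changes was not tested.

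Over all genes in IP, KO against flox after hepatectomy, DESeq2 called 809 genes and edgeR 210, and 170 without TMM factors (95 lower), 377 at 50 CPM (209 lower). In input, where edgeR called at most 3 genes in a comparison, DESeq2 called 148 to 1353. Inputs of Cyp2b10, Cyp2a5 and Cyp2a12 varied widely within groups of like depth, which limits what they show. So did those of Cyp3a25 in sham flox and Cyp3a13 in sham KO.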
